A study of Mus musculus with 18 samples.

Results

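The ligands and secreted antagonists of bone morphogenetic protein (BMP) signalling were followed in GFP+ cells of the Tcf21 lineage, sorted from the neonatal mouse heart and sequenced in bulk. The set consists of 9 genes given by name, 6 ligands (Bmp2, Bmp4, Bmp5, Bmp6, Bmp7 and Gdf10) and 3 antagonists or binding partners (Grem1, Nog and Fstl1), and all 9 were found among the 55453 gene symbols of the count table. The 18 libraries formed 6 groups of 3. Un-manipulated pups of P2 or P10 made up the baseline groups, and pups of the remaining groups were given a sham operation or an apical resection at P2 or P10 and were collected 3 days later, at postnatal day 5 or 13. All pups, controls included, were C57BL/6J animals carrying Tcf21-MerCreMer and Rosa-mTmG, a reporter that turns from membrane Tomato to membrane GFP after Cre recombination, and all received tamoxifen at P1. GFP therefore marks cells in which the Tcf21 locus drove Cre at that time, and their descendants. How many pups made up a library, and of which sex, is not stated in the labels, so the p-values measure the spread between these libraries only. Because sham and resected cells were 3 days older than baseline cells of the same surgery age, a sham and baseline difference holds surgery and growth together. The 3 P2 groups are called the P2 window, in which the heart can regenerate, and the 3 P10 groups the P10 window.

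BMPs are secreted ligands of the TGF-beta superfamily that bind paired type I and type II serine/threonine kinase receptors. The active receptors phosphorylate Smad1, Smad5 and Smad9, which join Smad4 and turn on genes such as the Id family. Noggin (Nog), Gremlin 1 (Grem1) and Chordin (Chrd) bind ligands outside the cell and keep them from the receptors, whereas Smad6 and Smad7 act inside the cell as induced brakes. In the developing heart BMP2 and BMP4 are known for roles in the outflow tract, cushions and valves.

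RefSeq promoter entries matched 6 of the 9 genes (Bmp4, Bmp5, Bmp6, Gdf10, Grem1 and Fstl1). The 250 bases before the annotated start are shown for Bmp4, which rose between the windows, and for Gdf10, for which no difference passed the test, so that a ligand of each kind can be read. Both are from RefSeq on GRCm38.p6, written 5′ to 3′ on the gene's strand. Capitals mark the GC box GGGCGG and the E-box CACGTG, searched on both strands.
Bmp4 (chr14:46390670-46390919, minus strand): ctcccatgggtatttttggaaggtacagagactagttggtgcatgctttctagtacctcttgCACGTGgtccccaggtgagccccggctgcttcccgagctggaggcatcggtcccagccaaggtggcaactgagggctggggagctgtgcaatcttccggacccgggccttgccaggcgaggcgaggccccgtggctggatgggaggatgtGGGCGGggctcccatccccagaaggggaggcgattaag
Gdf10 (chr14:33923337-33923586, plus strand): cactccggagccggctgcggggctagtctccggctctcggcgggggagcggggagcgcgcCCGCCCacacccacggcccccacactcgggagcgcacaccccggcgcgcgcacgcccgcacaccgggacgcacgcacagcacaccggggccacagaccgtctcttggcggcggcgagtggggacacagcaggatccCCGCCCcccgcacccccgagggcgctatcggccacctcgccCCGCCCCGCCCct
The Bmp4 window was 63.2% G and C and held 1 E-box and 1 GC box, which began 188 and 38 bases before the start. The Gdf10 window was 78.8% G and C and held 4 GC boxes and no E-box. The last pair of its GC boxes overlapped by a base. Bmp6, the other clearly raised ligand, also had 1 E-box and 1 GC box in its RefSeq window, which lies inside the first exon of the GENCODE gene model and is not printed. Of all 32851 RefSeq promoter windows of 250 bases, 6.02% held this E-box and 32.7% held the GC box. TATAAA, held by 12.4% of windows, occurred in none of the 6 matched promoters. GGCGCC, a GC-rich motif bound by Smad proteins, was held by 9.59% of windows and occurred among the 6 only in Grem1, 1 time.

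Library totals ran from 10462737 to 22980554 counted reads, and 16170 genes passed the filter on low counts, among them 7 of the 9 members. Nog and Grem1 did not pass. The fibroblast label was checked against markers. The summed level of 8 fibroblast markers lay between 44365 and 103993 CPM (read counts per 1000000 reads, with library sizes scaled by TMM) and was led by Col3a1, and Tcf21 itself ranged from 203 to 447 CPM. Markers of other cells were lower. The sum of 9 endothelial markers was 180 to 510 CPM and consisted mainly of Tek, while Pecam1 did not exceed 59.0 CPM and Cdh5 did not exceed 22.5 CPM. The sum of 10 macrophage markers was 5.29 to 1076 CPM, that of 9 mural markers 1061 to 2512 CPM, and that of 8 epicardial markers 798 to 2096 CPM, mostly Aldh1a2, with Wt1 at no more than 3.49 CPM. The sum of 12 cardiomyocyte markers was 345 to 1623 CPM in the P2 window and 166 to 842 CPM in the P10 window. In bulk RNA, fewer cells of a type and less RNA per cell cannot be told apart. Digestion was longer for older hearts, so digestion time and age cannot be told apart either.

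Transcript levels of the members differed widely when expressed per kilobase of exon. Fstl1, a secreted follistatin-like glycoprotein made by mesenchymal cells, stood far above the ligands at 975 ± 189 CPM per kb (SD, n = 18). Bmp6 followed at 33.3 ± 14.1 CPM per kb and Bmp4 at 25.3 ± 9.44 CPM per kb. Gdf10, also known as BMP3B and a ligand that can counter other BMPs, was at 11.1 ± 3.14 CPM per kb and Bmp2 at 7.54 ± 4.49 CPM per kb. The order of neighbours was not fixed. At P2 baseline Bmp6 and Bmp4 stood at 15.5 ± 4.12 and 17.2 ± 3.49 CPM per kb (SD, n = 3), within each other's spread, whereas at P10 baseline they stood at 53.8 ± 4.03 and 37.4 ± 3.78 CPM per kb and their libraries did not overlap. Nog, Bmp5 and Bmp7 were at 0.162 ± 0.179, 0.157 ± 0.189 and 0.0851 ± 0.185 CPM per kb over the 18 libraries, and these do not differ beyond their spread. The value of Bmp5 may be too low, since 46.7% of its exon bases are shared with an antisense gene and reads there cannot be assigned without strand. Grem1 was the lowest, with 1 read in the whole series.

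**Figure D1:**
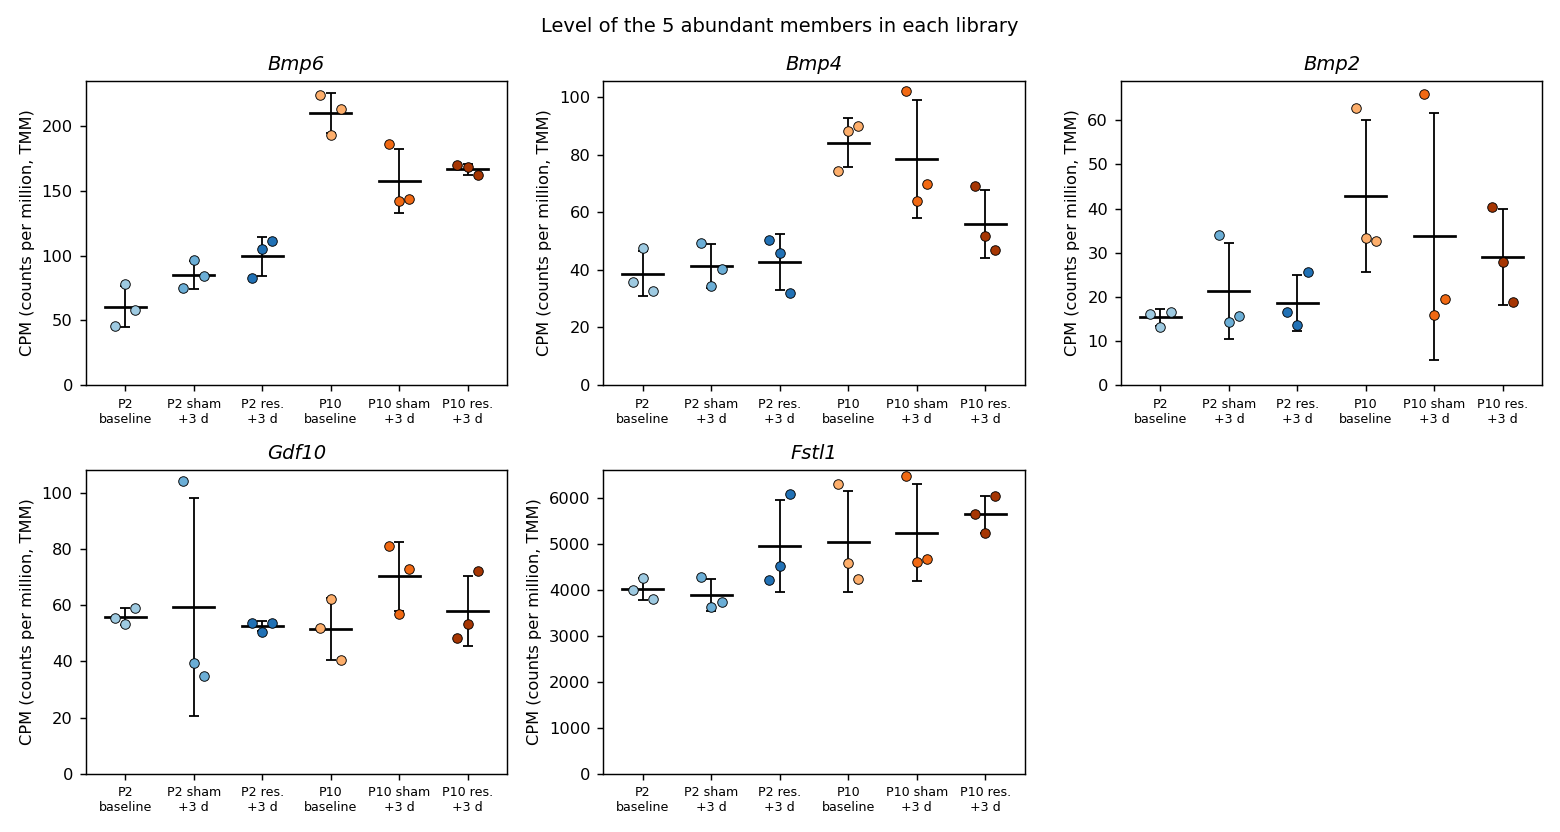
Level of Bmp6, Bmp4, Bmp2, Gdf10 and Fstl1 (y axis, CPM scaled by TMM, each panel from 0) in each of the 18 libraries (points), by group (x axis, with res. for resected), with the group mean (bar) and SD (whisker, n = 3). All 9 P10 libraries lie above all 9 P2 libraries for Bmp6, most do for Bmp4, and the P2 and P10 windows overlap for Bmp2, Gdf10 and Fstl1.

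The first question was whether fibroblasts of the P2 and P10 windows differed in the BMP signals they transcribe. Several ligands did. Across the windows, 4 of the 7 members tested were higher at P10 (Bmp2, Bmp4, Bmp5 and Bmp6) and 0 were lower, where 13.5% of the 16170 genes were called in either direction and 7.11% were higher. Bmp5 passed the filter on low counts only because of its P10 libraries, so its place in this count is tied to its being high there. The median log2 fold change of the 6 ligands was 0.89, against -0.06 over all genes tested. This median lies between the values of Bmp2 (0.93) and Bmp7 (0.85). The Bmp7 fit carries no information here (SE 1838.06), since some groups had no reads. Calls were made by edgeR's quasi-likelihood test at a Benjamini-Hochberg adjusted p under 0.05, and the same applies to every call below. Between the baseline groups alone, 2 members were called, Bmp4 and Bmp6, beside 4.38% of all genes. Between the sham groups 1 was called, Bmp6, beside 3.18%, and between the resected groups 0 were called, beside 0.860%. At an unadjusted p under 0.05 the resected groups differed in 1 member, Bmp6, and in 8.77% of all genes, and the DESeq2 Wald test called Bmp6 and 499 genes there. The window count fell from 4 to 2, Bmp4 and Bmp6, when P10 resected replicate 2, P2 resected replicate 1, P2 sham replicate 2 or 3, or P2 baseline replicate 1 or 2 was left out. Each of the 18 removals lost the call of Bmp2, of Bmp5 or of both, and without P2 resected replicate 3 the count was still 4 with Fstl1 in the place of Bmp5. Beside these calls, 6 of 12 cardiomyocyte markers were lower and 3 of 8 fibroblast markers (Col3a1, Dcn and Lum) higher at P10. Of 9 mural markers 3 were higher (Rgs5, Kcnj8 and Myh11) and 1 lower (Mcam), and of 10 macrophage markers 9 were higher by estimate with 0 called (median log2 fold change 0.97). By estimate 5 of 7 epicardial markers were lower (median -0.68) and 5 of 9 endothelial markers higher (0.06), with 0 called. The epicardial median was -2.48 at baseline, 0.00 after sham and 1.40 after resection. The part of such shifts in cell content was not tested.

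Bmp6, a ligand best known for the control of iron through hepcidin and also active in bone and vessels, gave the clearest change of the set. The gene lies on the plus strand of chromosome 13 (GRCm38, 38345107 to 38500302) in 9 exon regions, and 5.74% of its exon bases are shared with Txndc5 on the opposite strand, from which reads without strand cannot be separated. Txndc5 had 365685 reads over the 18 libraries, against 41068 for Bmp6, and its own window log2 fold change was 0.21 (SE 0.13, edgeR adjusted p = 0.296). At P2 baseline the level of Bmp6 was 45.9, 77.7 and 58.0 CPM, and at P10 baseline 224, 193 and 213 CPM. The lowest P10 library thus had more than the highest P2 library by a wide margin, and 22.4% of all genes did not overlap in this comparison. The fitted log2 fold change at baseline was 1.79 (SE 0.22, edgeR adjusted p = 2.04e-04), or 3.47-fold by the fit. After sham surgery the levels were 74.9, 96.2 and 84.1 CPM at P2 and 186, 142 and 144 CPM at P10, a log2 fold change of 0.89 (SE 0.21, edgeR adjusted p = 0.0298). After resection they were 82.4, 105 and 111 CPM at P2 and 170, 168 and 162 CPM at P10. The groups again did not overlap, which 23.3% of all genes also did not in this comparison, and the log2 fold change of 0.74 (SE 0.21) did not pass (edgeR adjusted p = 0.140). Over the windows, the log2 fold change was 1.14 (SE 0.12, edgeR adjusted p = 9.18e-06), with no P10 library below 142 CPM and no P2 library above 111 CPM. Separation of all 9 P10 from all 9 P2 libraries was seen for 2.51% of the genes.

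The age difference of Bmp6 was smaller in the operated than in the un-manipulated hearts by estimate, since P2 levels were higher and P10 levels lower 3 days later. The baseline age effect exceeded the sham age effect by 0.91 on the log2 scale (SE 0.30, unadjusted p = 0.00778), and the edgeR test of this difference did not pass over all genes (adjusted p = 0.570). This contrast was added after the values were seen, and so was the next. Between P2 sham cells, collected at day 5, and P10 baseline cells, the log2 fold change of Bmp6 was 1.30 (SE 0.22, edgeR adjusted p = 0.00670), where 1.32% of all genes were called. Without P10 sham replicate 1 or 3 or P2 sham replicate 1 or 3 the sham comparison of Bmp6 gave an edgeR adjusted p of 0.0556 to 0.120, with log2 fold changes of 0.75 to 0.95. The sham call was also lost with no filter on low counts (edgeR adjusted p = 0.0696) and with only the compared groups in the fit (adjusted p = 0.264). The window call held without each of the 18 libraries in turn, at log2 fold changes of 1.09 to 1.21.

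Bmp4, a ligand close to Bmp2 in sequence and signalling, was the second member whose window call held throughout, though its rise was smaller by estimate after resection. It lies on the minus strand of chromosome 14 (46383520 to 46390669). Its level was 35.7, 47.6 and 32.8 CPM at P2 baseline and 74.4, 88.2 and 89.9 CPM at P10 baseline. The 2 baseline groups were clear of each other, as for 22.4% of all genes, and differed by a log2 fold change of 1.12 (SE 0.27, edgeR adjusted p = 0.0223). Without P10 baseline replicate 2 or 3 or P2 baseline replicate 1 or 3 the edgeR adjusted p was 0.0731 to 0.0998, at log2 fold changes of 1.01 to 1.09. Sham libraries gave 49.4, 34.3 and 40.4 CPM at P2 and 102, 63.8 and 69.7 CPM at P10. These too were clear of each other, as for 16.7% of all genes, and the log2 fold change of 0.92 (SE 0.27) was short of the threshold (edgeR adjusted p = 0.0705). Resected libraries gave 50.5, 45.7 and 31.8 CPM at P2 and 69.1, 51.6 and 46.8 CPM at P10, which overlap, with a log2 fold change of 0.39 (SE 0.26, edgeR adjusted p = 0.827). Over the windows Bmp4 rose by 0.81 on the log2 scale (SE 0.15, edgeR adjusted p = 0.00151), and this held without each library in turn at 0.73 to 0.87. The windows overlapped slightly, the highest P2 library being at 50.5 CPM and the lowest P10 library at 46.8 CPM, both after resection.

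Bmp2, the ligand known for inducing bone and for cushion formation in the heart, was higher on average at P10 and differed widely between replicates of some groups. It lies on the plus strand of chromosome 2 (133552159 to 133562885). At P2 baseline it was at 16.2, 13.2 and 16.6 CPM, and at P10 baseline at 62.7, 33.3 and 32.6 CPM. These groups did not overlap, as for 22.4% of all genes, and the log2 fold change of 1.48 (SE 0.51) did not pass (edgeR adjusted p = 0.115). After sham surgery it was at 33.9, 14.3 and 15.7 CPM at P2 and at 65.9, 15.8 and 19.4 CPM at P10. In each sham group replicate 1 alone stood high. After resection it was at 16.5, 13.6 and 25.7 CPM at P2 and at 40.4, 27.8 and 18.8 CPM at P10, again with overlap. Replicate 1 was also the highest library of the P10 baseline and P10 resected groups, while replicate 3 was the highest of the P2 baseline and P2 resected groups. The window difference of 0.93 on the log2 scale (SE 0.29) passed narrowly (edgeR adjusted p = 0.0418). It passed when the library left out was P10 resected replicate 3, P10 sham replicate 2 or 3, P10 baseline replicate 2 or 3, P2 resected replicate 3 or P2 sham replicate 1, and failed without any of the other 11, at adjusted p of 0.0602 to 0.0933 and log2 fold changes of 0.62 to 0.95. The sum of 17 immediate early genes, a list added after the values were seen, was 4443 to 9979 CPM in the P2 libraries and 8774 to 17991 CPM in the P10 libraries. Its part in the Bmp2 difference was not tested.

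**Figure D2:**
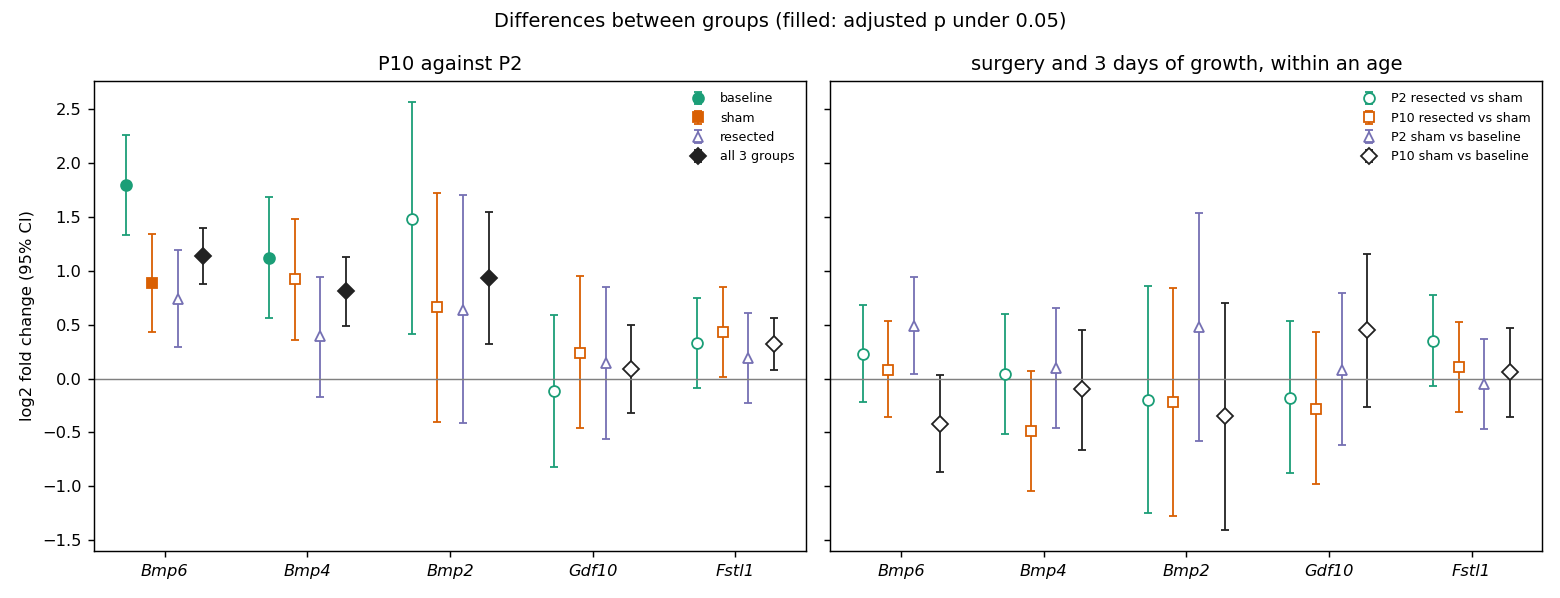
Fitted log2 fold change (y axis) with its 95% confidence interval for the 5 abundant members (x axis), P10 against P2 on the left and within an age on the right, with filled symbols for an edgeR adjusted p under 0.05. Bmp6 and Bmp4 at baseline, Bmp6 after sham, and Bmp6, Bmp4 and Bmp2 over the windows are filled, and no symbol on the right is.

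Bmp5 and Bmp7, ligands of the same subfamily as Bmp6, were close to the limit of detection. Bmp5 (chromosome 9, 75775364 to 75900310) had 187 reads in all, 30 in the P2 window and 157 in the P10 window. By library these were 1, 0 and 9 at P2 baseline, 0, 0 and 0 after P2 sham, 0, 17 and 3 after P2 resection, 0, 34 and 27 at P10 baseline, 13, 14 and 33 after P10 sham, and 9, 20 and 7 after P10 resection. All P10 libraries but 1 had reads, and 5 of the 9 P2 libraries had none. The P2 libraries alone would not have carried Bmp5 through the filter on low counts. The depth-scaled ratio of the windows was 6.14 (95% interval 4.13 to 9.40, counting error only), and edgeR called the difference (fitted log2 fold change 3.82, SE 1.13, adjusted p = 0.0357). That call was kept without P10 resected, P10 sham or P10 baseline replicate 1, P2 resected replicate 2 or P2 baseline replicate 3, and lost without any of the other 13 libraries, at adjusted p of 0.0507 to 0.0730 and fitted log2 fold changes of 3.59 to 3.90. After sham surgery Bmp5 had 60 reads at P10 and 0 at P2. Set against an assumed floor of 3 reads for the P2 sham group, this is 20.7-fold, a value that leaves out the spread between libraries. The fitted log2 fold change had a 95% interval of 2.23 to 12.26, and the edgeR test there did not pass (adjusted p = 0.123). The ratio was 8.03 at baseline (95% interval 4.08 to 17.6) and 2.17 after resection (1.22 to 3.95), both for counting error only, and neither passed in edgeR (the smaller adjusted p being 0.436). Of the 10 reads at P2 baseline 9 came from replicate 3, and of the 20 after P2 resection 17 came from replicate 2. Leaving out 1 library moved the fitted log2 fold change between 2.19 and 5.64 at baseline (2.90 with all) and between 0.71 and 3.08 after resection (1.31 with all). An antisense gene, Gm26903, covers 46.7% of the exon bases of Bmp5 and was itself given 0 reads, and reads in the shared part cannot be assigned without strand. Bmp7 (chromosome 2, 172868012 to 172940321) had 104 reads in 6 libraries, 50 of them in P10 baseline replicate 1, and the other 2 libraries of that group had none. Its window ratio was 2.52 (95% interval 1.65 to 3.94, counting error only), a value carried by that library, and was not called.

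Gdf10 (chromosome 14, plus strand, 33923587 to 33937983) was the ligand for which no difference was detected at a usable level. Its group means were 55.9 ± 2.95 CPM at P2 baseline, 59.2 ± 38.4 after P2 sham, 52.5 ± 1.76 after P2 resection, 51.5 ± 11.0 at P10 baseline, 70.2 ± 12.2 after P10 sham and 57.9 ± 12.5 after P10 resection (SD, n = 3). In each of the comparisons made the groups overlapped. P2 sham replicate 1, at 104 CPM against 39.5 and 34.7 CPM in the other 2 libraries, made the wide spread of its group. The window log2 fold change was 0.09 (95% interval -0.32 to 0.50, edgeR adjusted p = 0.820), and without that library it was 0.32.

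Among the antagonists only Fstl1 was abundant. It lies on the plus strand of chromosome 16 (37776873 to 37836514) and averaged 4010 ± 234 CPM at P2 baseline, 3880 ± 348 after P2 sham, 4938 ± 999 after P2 resection, 5041 ± 1100 at P10 baseline, 5240 ± 1056 after P10 sham and 5637 ± 400 after P10 resection (SD, n = 3). P10 means were thus above P2 means in each setting, with overlap except after sham surgery, where 16.7% of all genes did not overlap. The window log2 fold change of 0.32 (SE 0.11, unadjusted p = 0.0128) did not pass in edgeR (adjusted p = 0.0755), did pass in the DESeq2 Wald test (adjusted p = 0.0367), and passed in edgeR without P2 resected replicate 3 (log2 fold change 0.38, adjusted p = 0.0433). That library, at 6078 CPM, was the highest of the P2 window. Nog (chromosome 11, 89300638 to 89302332), which encodes Noggin, had 64 reads in the P2 window and 27 in the P10 window, a depth-scaled ratio of 0.495 (95% interval 0.303 to 0.787, counting error only). Of the P2 reads 23 came from P2 resected replicate 3, whereas the 3 P10 sham libraries had 3 each. With no filter on low counts the edgeR log2 fold change of Nog was -0.92 (SE 1.20, adjusted p = 1.00), so no change was detected once the spread between libraries was counted. Grem1 (chromosome 2, 113746164 to 113758646), which encodes Gremlin 1, had its single read in P2 resected replicate 3. No read in the 9 P10 libraries allows a level of up to 0.0199 CPM over that window.

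**Figure D3:**
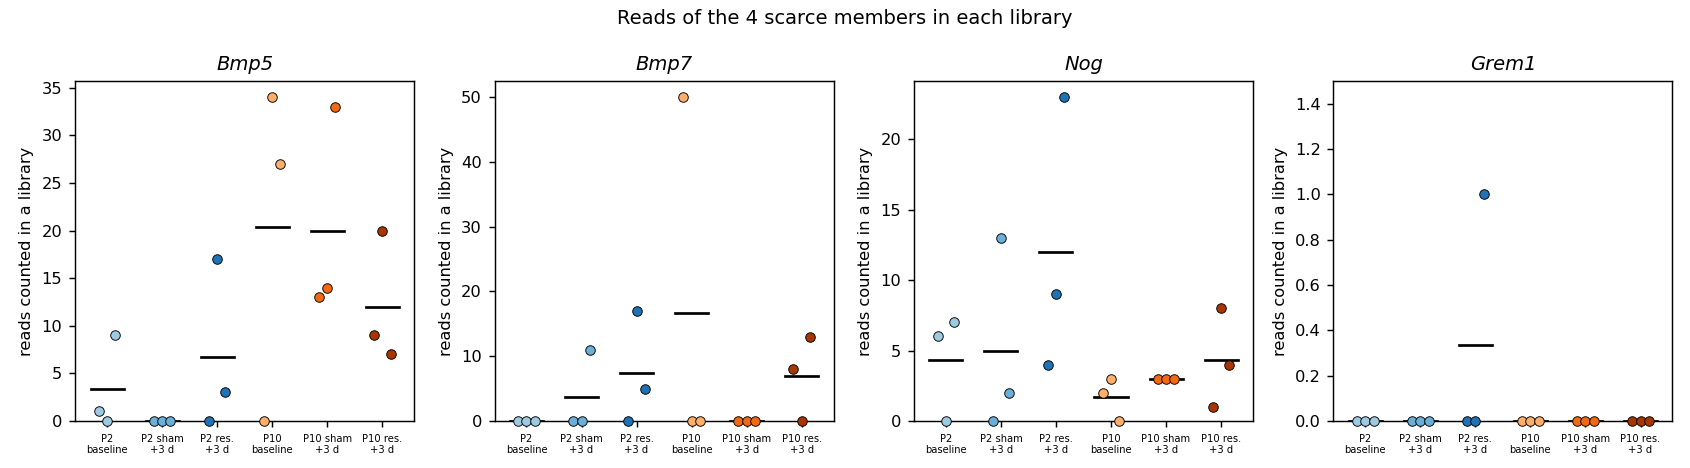
Counted reads per library (y axis, from 0) of Bmp5, Bmp7, Nog and Grem1 in the 6 groups (x axis), with the group mean as a bar. Bmp5 reads lie mostly in P10 libraries, 50 of the 104 Bmp7 reads in 1 library, and Grem1 has 1 read.

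Whether resection changed these genes was asked within each age. At P2 and at P10, 0 of the 7 members tested were called between resected and sham libraries, where 0% of all genes were called in each comparison. At an unadjusted p under 0.05, 730 genes (4.51%) passed at P2 and 661 (4.09%) at P10, and the DESeq2 Wald test called 34 and 42 genes and no member. Of the members tested, 1 had an unadjusted p under 0.05 at P2 (Bmp5) and 0 at P10. Among the 5 abundant members the smallest p was that of Bmp4 at P10, lower after resection by estimate (69.1, 51.6 and 46.8 CPM against 102, 63.8 and 69.7 CPM), with a log2 fold change of -0.49 (SE 0.26, 95% interval -1.04 to 0.07, edgeR adjusted p = 1.00). For Bmp6 the intervals were -0.22 to 0.68 at P2 and -0.36 to 0.53 at P10, so changes of 2-fold either way lie outside them. For Bmp2 they were -1.25 to 0.86 and -1.27 to 0.84, which include a 2-fold fall. The scarce ligand Bmp5 had 0 reads after P2 sham and 20 after P2 resection, 17 of them in replicate 2. The test of whether the resection effect differed between P10 and P2 also called 0 members and 0 genes, with 465 genes at an unadjusted p under 0.05 and 26 genes called by DESeq2. Markers of other cells also differed by estimate after resection, with none called. All 10 macrophage markers were higher at each age (median log2 fold change 0.94 at P2 and 1.01 at P10). Of 9 endothelial markers 8 were higher at P2 (median 0.74) and 7 at P10 (1.08), of 9 mural markers 8 were higher at P2 (0.57) and 6 at P10 (0.06), and of 7 epicardial markers 4 were higher at P2 (0.08) and 7 at P10 (3.15). Of 12 cardiomyocyte markers 11 were lower at P2 (-0.75) and 9 higher at P10 (0.38). Their part in the members' values was not tested.

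Sham against baseline, that is 3 days of growth together with the operation, gave 0 called members at P2 beside 0% of all genes, and 0 at P10 beside 0.00618%. At an unadjusted p under 0.05 in edgeR the P2 comparison held 1229 genes (7.60%) and the P10 comparison 1197 (7.40%). Among the members these were Bmp6 and Bmp5 at P2, the latter with 0 sham against 10 baseline reads. At P10 it was Bmp7, with 0 sham against 50 baseline reads, all 50 in 1 library. DESeq2 called 180 genes at P2 and 167 at P10. Bmp6 had opposite signs at the 2 ages, with a log2 difference of 0.49 at P2 (SE 0.21, unadjusted p = 0.0342, edgeR adjusted p = 0.616) and of -0.42 at P10 (SE 0.21, edgeR adjusted p = 0.696). At P10 every sham library was below every baseline library, as for 10.0% of all genes when both directions are counted. Marker lists differed by estimate here too, with none of their genes called. Macrophage markers were higher in 8 of 10 cases at P2 (median log2 difference 0.66) and in 10 of 10 at P10 (1.33), cardiomyocyte markers lower in 9 of 12 (-0.50) and 10 of 12 (-0.60), and mural markers lower in 4 of 9 (median 0.19) and 9 of 9 (-0.51). Epicardial markers were higher in 3 of 7 (-0.33) and 5 of 7 (1.92), with 4 of the 8 listed at 0 reads at P10 baseline. Endothelial markers were higher in 3 of 9 (-0.26) and 5 of 9 (0.21). Their part in the Bmp6 values was not tested.

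The make-up of the ligand transcripts was compared per kilobase of exon, where genes can be set beside each other. The summed level of the 6 ligands was 47.8 ± 6.37 CPM per kb at P2 baseline and 114 ± 4.41 at P10 baseline (SD, n = 3). It was 57.7 ± 11.3 and 98.5 ± 25.2 after sham surgery and 59.9 ± 1.33 and 87.1 ± 7.06 after resection. In each setting the P10 libraries were all above the P2 libraries. Bmp6 took 32.1 ± 4.41% of the sum at P2 baseline and 47.3 ± 2.15% at P10 baseline, while Gdf10 took 22.7 ± 3.64% and 8.69 ± 1.98%. These shares did not overlap between the ages. After sham surgery they did: Bmp6 took 39.2 ± 10.7% at P2 and 41.6 ± 3.94% at P10, and Gdf10 took 18.7 ± 8.31% and 13.9 ± 1.88%. After resection Bmp6 took 42.5 ± 5.74% and 49.2 ± 2.94% and Gdf10 took 16.8 ± 0.887% and 12.9 ± 3.65%, again with overlap. Bmp4 took 35.8 ± 3.41% at P2 baseline and 33.0 ± 4.46% at P10 baseline, within the spread of the libraries. The level of Fstl1 per kb was 17.2 times the ligand sum at P2 baseline and 8.97 times at P10 baseline, 13.9 and 10.9 times after sham surgery, and 16.8 and 13.2 times after resection. These are values of transcripts, given without a test.

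**Figure D4:**
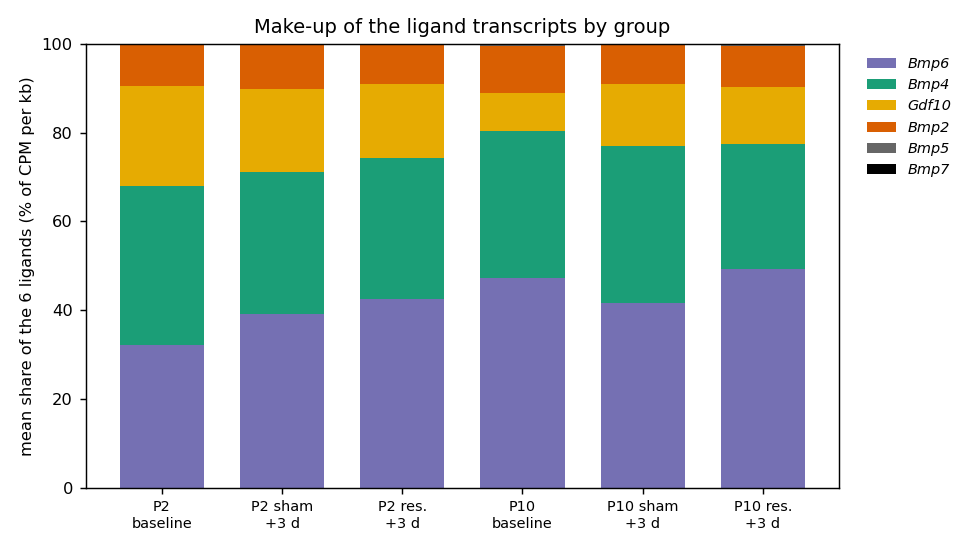
Mean share (y axis, % of the summed CPM per kb, from 0) of each of the 6 ligands in the 6 groups (x axis, n = 3 each, no error drawn). Bmp6 goes from 32.1% at P2 baseline to 47.3% at P10 baseline and Gdf10 from 22.7% to 8.69%, and Bmp5 and Bmp7, each under 1%, are too thin to see.

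The rest of the pathway was taken from a list of 56 genes. Over the windows 43 of them were tested and 12 were called, 10 higher and 2 lower at P10, beside the 13.5% of all genes given above. Of the 15 extracellular modulators tested, 6 were called, all higher, and the median log2 fold change of the 15 was 0.90. Chrd, which encodes the antagonist Chordin, had a mean of 14.5 CPM in the P2 window and 43.8 CPM in the P10 window (log2 fold change 1.64, SE 0.23, edgeR adjusted p = 1.13e-04). Its P2 libraries ranged from 4.39 to 21.3 CPM and its P10 libraries from 26.5 to 59.2 CPM, without overlap, as for 2.51% of all genes. Nbl1, a DAN-family antagonist, rose from 138 to 454 CPM (1.74, SE 0.24) and Smoc2, a matricellular calcium-binding protein, from 985 to 2948 CPM (1.59, SE 0.10, edgeR adjusted p = 2.19e-08). Bmper, which encodes a ligand-binding modulator with chordin-like repeats, rose by 1.25 (SE 0.20), Kcp, a related chordin-like protein, by 0.90 (SE 0.19), and Bmp1, a metalloproteinase that cleaves Chordin and procollagens and is no BMP ligand, by 0.68 (SE 0.16).

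Receptors and Smads held fewer calls than the modulators, a difference that was not tested. Of 10 receptor and co-receptor genes, Acvrl1, the type I receptor ALK1, rose by 0.69 (SE 0.15) and Rgmb, a co-receptor, by 0.81 (SE 0.12), and 0 were lower. Bmpr1a was at 89.9 and 81.7 CPM and Bmpr2 at 34.9 and 37.0 CPM in the P2 and P10 windows, and neither passed. Of the 4 Smads of the pathway 0 were called, and the 2 with the smallest p, Smad1 and Smad4, had log2 fold changes of 0.19 (SE 0.13) and 0.18 (SE 0.14). Of the 3 other ligands tested 0 were called, the smallest p being that of Gdf6 (0.40, SE 0.28), followed by Bmp3 (0.23, SE 1.28).

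Inhibitors and targets went in both directions. Smad6, the inhibitory Smad that BMP signals induce, was lower at P10, at 57.2 CPM in the P2 window and 19.6 CPM in the P10 window (log2 fold change -1.53, SE 0.19, edgeR adjusted p = 3.56e-05). At baseline its libraries held 81.2, 90.2 and 56.8 CPM at P2 and 17.4, 28.8 and 19.3 CPM at P10, clear of each other, as for 22.4% of all genes. Of 5 feedback inhibitors it was the only one called. Of 6 target genes tested, Msx1, a homeobox factor, rose from 7.78 to 20.1 CPM (1.43, SE 0.26), Id2 rose by 0.45 (SE 0.14, edgeR adjusted p = 0.0454) and Id1, a direct BMP target that blocks basic helix-loop-helix factors, fell from 51.9 to 29.5 CPM (-0.83, SE 0.22, edgeR adjusted p = 0.0179). The call of Id2 was kept without P10 resected, P10 sham, P10 baseline or P2 sham replicate 2 and lost without any of the other 14 libraries (adjusted p 0.0524 to 0.0884). Id3, the most abundant Id gene here at 581 and 677 CPM, did not pass.

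**Figure D5:**
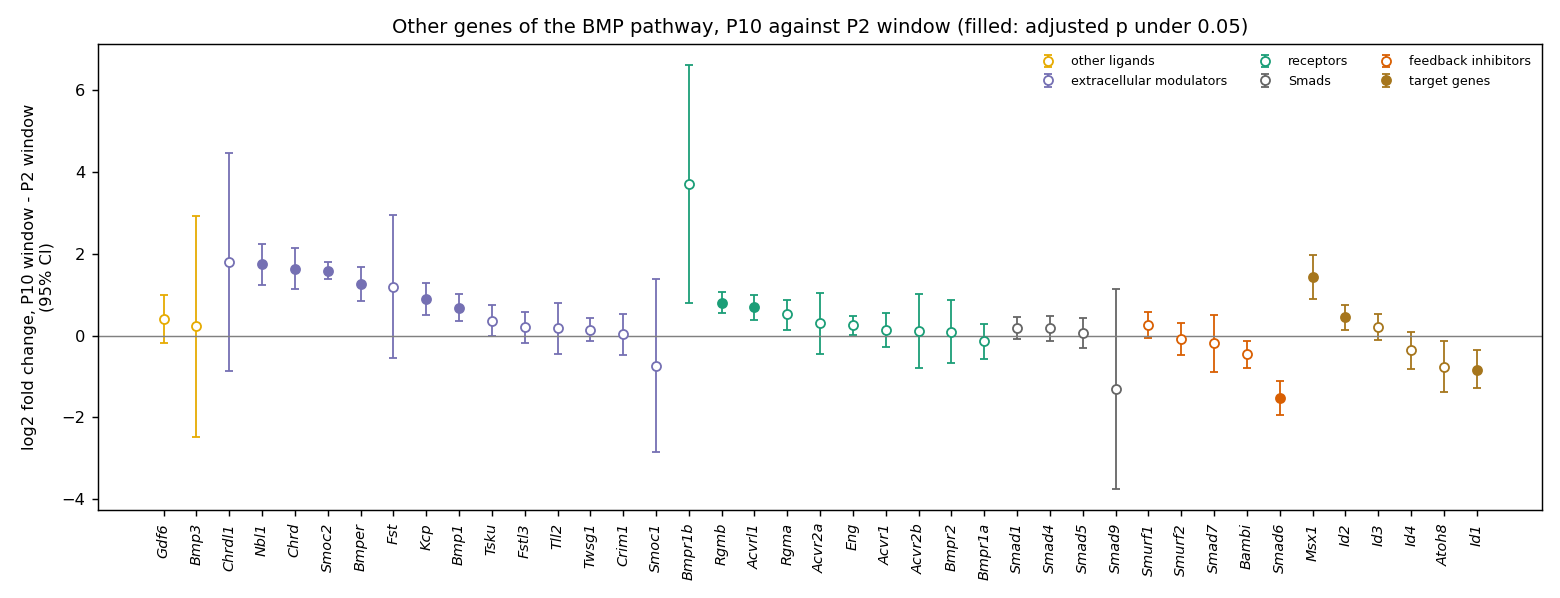
Log2 fold change (y axis, P10 minus P2 window, with 95% confidence interval) of 41 other pathway genes (x axis) by role, filled where the edgeR adjusted p is under 0.05, leaving out Bmp15 and Vwc2, whose SE was 2 or more. Called modulators and receptors and the targets Msx1 and Id2 are above 0, while Smad6 and Id1 are below.

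Within the single settings fewer of these genes passed. At baseline 8 of the 43 tested were called, beside 4.38% of all genes, Nbl1, Kcp, Chrd, Smoc2, Acvrl1, Rgmb and Msx1 higher and Smad6 lower (log2 fold change -1.80, SE 0.34). The call of Chrd was lost without P2 baseline replicate 2 (edgeR adjusted p = 0.0541), that of Rgmb without P2 baseline replicate 1 (adjusted p = 0.0506), and that of Acvrl1 without any baseline library but P10 replicate 1 (adjusted p 0.0538 to 0.0939). Between the sham groups Nbl1, Smoc2 and Smad6 were called, beside 3.18% of all genes, and between the resected groups Bmper and Smoc2, beside 0.860%. Nbl1 after sham was lost without P10 sham replicate 2 or 3 or P2 sham replicate 1 or 3 (edgeR adjusted p 0.0732 to 0.118), and Bmper after resection without P10 resected replicate 3 or P2 resected replicate 2 or 3 (adjusted p 0.100 to 0.166). No other pathway gene was called for resection against sham or for sham against baseline.

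For each member called over the windows, the genes with the most similar pattern over the 18 libraries were found by the mean absolute difference of standardised log2 CPM, in SD. Bmp6 was nearest to Stim1 and Pamr1 (0.300 each, against a median of 1.13 over all genes). Stim1 encodes the calcium sensor of the endoplasmic reticulum, and its window means were 40.5 and 76.5 CPM. Bmp4 was nearest to Mmp2 (0.387), a gelatinase of fibroblasts, and Rnf167 (0.397). Bmp2 was nearest to Klf4 (0.389), an early response transcription factor, and Adamtsl3 (0.402), and Bmp5 to Pcolce (0.357), an enhancer of procollagen cleavage, and Slc38a7 (0.386). The likeness of Bmp5 rests on libraries with few reads.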

How the data were processed

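Per the labels and the study's methods, the authors sorted GFP+ cells from the apical part of the ventricles, made SMARTer and Nextera XT libraries, trimmed single-end reads with fastp 0.20.0, aligned them to GRCm38.p6 with STAR 2.7.0f and deposited raw counts per gene symbol from featureCounts (Subread 1.6.4, GENCODE M22, strand ignored). Positions and exon lengths came from GENCODE M21 on GRCm38.

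Counts were fitted in R 4.3.3 with edgeR 4.0.16 (TMM, filterByExpr with a minimum count of 10 and total of 15, quasi-likelihood, 1 mean for each of 6 groups, 18 libraries), with Benjamini-Hochberg adjustment over 16170 genes. Alternatives were RLE scaling, no filter, DESeq2 1.42.0, a replicate block, fits of the compared groups alone, and leaving out each library. Code was tested on simulated data. The members and lists were chosen with earlier results of these data known. All members were named, with pathway genes called in any comparison (else the 2 with the smallest p) and the 2 nearest genes. Replicates differed beyond sampling noise. Intervals of fitted changes include the spread between libraries, and those of read ratios cover counting error only.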

Additional observations from a re-analysis of the deposited data

How the results depend on the processing

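Bmp6 and Bmp4 kept their window calls under every alternative run, and scaling by RLE moved no count of calls. Between the sham groups the number of members called was 1, and it was 0 with no filter on low counts, 0 with only the compared groups in the fit, 2 with the replicate block (Bmp4 and Bmp6) and 3 with DESeq2. DESeq2 called 1 member between the resected groups. With only the compared groups in the fit, 1 member and 4 other pathway genes were called at baseline, where Bmp4, Msx1, Acvrl1, Chrd and Rgmb no longer passed, and between the sham groups Smad6 (adjusted p = 0.0690) and Nbl1 (adjusted p = 0.191) were not. Bmp2 at baseline passed with no filter, with the block and in DESeq2 (adjusted p = 0.0395). DESeq2 also called more genes, 3188 against 2183 over the windows.

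The labels do not state that equal replicate numbers pair the samples, so the main fit held no pairing. Over 45 same-number pairs the correlation of deviations ran from -0.13 to 0.38 (median 0.05), with 15 over 0.1. Over 90 other-number pairs it ran from -0.28 to 0.21 (median -0.02), with 12 over 0.1, so same-number pairs were somewhat more alike. With the replicate block 2745 genes were called over the windows, against 2183 without it, and the adjusted p of Bmp2 in edgeR was 0.0197. The replicate block reversed Bmp7 between the resected groups (-1.43) and Bmp5 in P10 sham against baseline (0.31), neither called, and no other direction among the values compared. Bmp2 in the difference of resection effects was 0.01 under RLE scaling and 0.01 under DESeq2.

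Leaving out 1 library gave 2 to 4 members over the windows, 1 to 2 at baseline and 0 to 1 after sham. Uncalled log2 fold changes that changed sign had these ranges. In P10 against P2, Gdf10 ran from -0.00 to 0.32 over the windows, -0.28 to 0.03 at baseline, -0.03 to 0.92 after sham and -0.03 to 0.26 after resection, Bmp2 from -0.28 to 1.17 after sham, and Bmp7 from -0.73 to 1.71 after resection. In resection against sham, Bmp2 ran from -0.56 to 0.72 at P10, and at P2 Bmp2 from -0.50 to 0.31, Bmp7 from -0.73 to 5.66, Gdf10 from -0.45 to 0.50 and Bmp4 from -0.10 to 0.22. In the difference of those effects Bmp2 ran from -0.52 to 0.92 and Gdf10 from -0.78 to 0.17. In sham against baseline at P10, Fstl1 ran from -0.12 to 0.25, Bmp4 from -0.33 to 0.03, Bmp2 from -1.28 to 0.03 and Bmp5 from -1.10 to 0.19, and at P2 Bmp2 from -0.03 to 0.71, Gdf10 from -0.59 to 0.36, Bmp4 from -0.05 to 0.27 and Fstl1 from -0.12 to 0.01. The cause was not tested. At 3 libraries a group, the values of Bmp5, Bmp7, Nog and Grem1 are limited by few reads, which for Bmp5, Bmp7 and Nog also varied between libraries.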
